A study of Mus musculus with 6 samples.

Results

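The genes followed here on the polysomes of mouse leukaemia cells were 10 members of the integrated stress response: Atf4, Ddit3, Atf3, Atf5, Cebpb, Cebpg, Trib3, Ppp1r15a, Chac1 and Sesn2. They were chosen by name as regulators and feedback genes of the ATF4 and CHOP pathway, with earlier results of these data known. All 10 were measured, each by 1 probe set that carries its symbol alone, among 19937 genes tested. The cells were the clone #483 of T-cell acute lymphoblastic leukaemia (T-ALL), on a C57BL6 background. One group (3 arrays) received 4EGI-1 at 100 µM during 2 h, and the other (3 arrays) is titled untreated. The compound 4EGI-1 keeps eIF4E, which holds the mRNA cap, from binding its scaffold partner eIF4G. The treatment protocol names the solvent DMSO for the control cells, while their titles say untreated. Whether these cells received solvent is not settled by the labels, and they are called untreated here after their titles. The pooled polysome fractions of a sucrose gradient gave the RNA of 1 array per sample. The design text calls the samples biological replicates, all of them of 1 clone. No unfractionated RNA of these cells was analysed here, so a change in the amount of an mRNA and a change in its share on polysomes cannot be told apart.

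The integrated stress response begins when one of the eIF2α kinases phosphorylates the initiation factor eIF2, which slows general translation. A few mRNAs with short upstream reading frames are then translated better, above all that of ATF4, a bZIP transcription factor. ATF4 switches on amino acid transport and synthesis genes together with a second tier of regulators, among them CHOP, the product of Ddit3, and feedback genes such as Ppp1r15a that restore translation. In T cells and leukaemias derived from them the pathway is known as a response to amino acid shortage and to stress of the endoplasmic reticulum (ER).

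After 4EGI-1, 7 of the 10 genes rose on polysomes, 0 fell and 3 did not pass the test (limma, adjusted p under 0.05). Over all genes tested, 11.5% were higher and 11.5% lower by the same rule. These shares were not matched for signal. Of the 11059 genes at or above the median signal of all probe sets, tested alone, 2339 were higher and 2804 lower. In that test 7 of the 10 genes rose and 1 fell. Because the signals are relative within an array, a rise here is relative to the other mRNAs on polysomes. The glutathione-degrading enzyme gene Chac1 rose most, 2.41-fold, followed by the nutrient-stress gene Sesn2 at 1.97-fold and Ddit3 at 1.82-fold. Atf4 itself rose 1.39-fold. Atf5, Atf3 and Cebpb did not pass, with log2 differences of -0.23, -0.09 and 0.21. The median log2 difference was 0.55 over the 10 genes, against -0.03 over all genes tested. Because the 10 genes were chosen with earlier results known, these comparisons describe them and are not independent evidence.

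Before the values, the promoters of the genes are shown where they hold letters of the kind ATF4, CHOP and related bZIP factors are known to bind. The C/EBP-ATF response element, searched as TGATGNAA and TGACGNAA, and the cyclic AMP response element, searched as TGACGTCA, were looked for on both strands. The RefSeq windows, from 250 bases before to 50 bases after each annotated start (GRCm38.p6), matched all 10 genes in 11 windows, of which Atf5 has a pair. Of 32851 such windows of all genes, 3.97% held TGATGNAA, 1.59% TGACGNAA and 1.79% TGACGTCA. Chac1, Ppp1r15a and Atf3 held a match before the start, and these stretches are given below with the matched letters in capitals, 5′ to 3′ on the gene's strand.
Chac1, chr2:119350992-119351061, plus strand: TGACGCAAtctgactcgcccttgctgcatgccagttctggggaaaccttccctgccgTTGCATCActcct
Ppp1r15a, chr7:45526269-45526338, minus strand: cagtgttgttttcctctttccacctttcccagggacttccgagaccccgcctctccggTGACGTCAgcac
Atf3, chr1:191183334-191183453, minus strand: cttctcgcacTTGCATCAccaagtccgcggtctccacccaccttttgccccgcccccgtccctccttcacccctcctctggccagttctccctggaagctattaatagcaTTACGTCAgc

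The Chac1 stretch ends 181 bases before the start and holds both response element forms, TGACGCAA at its first base and TTGCATCA, the TGATGNAA form read on the other strand. In Ppp1r15a the palindrome TGACGTCA lies 12 to 5 bases before the start. In Atf3, TTGCATCA lies 110 to 103 bases and TTACGTCA 10 to 3 bases before the start. Trib3 held TTACATCA at bases 15 to 22 after its start. The windows of Atf4, Ddit3, Atf5, Cebpb, Cebpg and Sesn2 held none of the letters searched. Bases outside the windows were not searched, so a match more than 250 bases before a start is not counted here. None of the matches overlapped another. Of the genes with a match, Chac1, Ppp1r15a and Trib3 rose and Atf3 did not pass; of those without, Atf4, Ddit3, Cebpg and Sesn2 rose and Atf5 and Cebpb did not pass.

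Atf4 encodes the central transcription factor of the response, and its mRNA carries upstream reading frames. The log2 signals were 10.79, 10.70 and 10.71 on the 4EGI-1 arrays, against 10.25, 10.26 and 10.27 on the untreated arrays. All 4EGI-1 arrays lay above all untreated ones, and the untreated arrays were nearly alike. The difference was 0.48 ± 0.06 (SE; adjusted p = 0.000821), and 5.23% of all genes tested had a larger one.

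Ddit3 encodes CHOP, a bZIP protein that dimerises with C/EBP factors and is known for its part in cell death after prolonged stress. Ddit3 gave log2 signals of 8.72, 8.65 and 8.63 with 4EGI-1 and 7.73, 7.89 and 7.79 in untreated cells. The gap between the groups was several times the spread within either. The difference was 0.86 ± 0.07 (SE; adjusted p = 0.000115). In the annotation used for names Ddit3 overlaps Mars1 and Mbd6, whose own probe sets differed by 0.20 ± 0.06 (adjusted p = 0.0508) and -0.01 ± 0.11 (adjusted p = 0.979).

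Atf3 encodes a bZIP factor known as an early gene of many stresses and as a target of ATF4. On the log2 scale its signal was 5.38, 5.17 and 5.47 with 4EGI-1, against 5.44, 5.43 and 5.43 in untreated cells. The groups overlapped, and the wider spread was on the 4EGI-1 side. All 6 values lay below the median signal of the table, 6.40, and no detection calls were used, so whether the transcript was present is not known. The difference was -0.09 ± 0.08 (SE; adjusted p = 0.494), with a 95% interval of -0.29 to 0.10.

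Atf5 encodes a close relative of ATF4 whose mRNA also carries upstream frames. In log2 units it read 7.91, 7.97 and 7.87 in treated cells and 8.04, 8.27 and 8.12 in untreated cells. The groups did not overlap, with 4EGI-1 the lower one, yet the difference of -0.23 ± 0.08 (SE) did not pass (adjusted p = 0.0628). It passed among genes at or above the table's median signal (adjusted p = 0.0174), at or above its 25th percentile (0.0393), and with a trended robust prior (0.0264). Over its 14 alternatives the adjusted p ran from 0.0174 to 0.178. The probe set of Nup62, which overlaps Atf5 in the annotation, differed by -0.03 ± 0.06 (adjusted p = 0.803). Il4i1b also overlaps Atf5 and was not measured by a probe set of its own.

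Of the C/EBP proteins that pair with ATF4 and CHOP, Cebpg encodes a short form without the usual activation domain, and it rose. The Cebpg log2 signal was 10.02, 9.99 and 10.01 with 4EGI-1 and 9.43, 9.70 and 9.47 in untreated cells. The treated arrays agreed closely, while untreated replicate 2 stood above its group. The difference was 0.47 ± 0.08 (SE; adjusted p = 0.00399), and 0.56 without untreated replicate 2. In the annotation Cebpg overlaps Gm45095, which was not measured by a probe set of its own.

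Cebpb encodes C/EBPβ, an activator known from inflammation and from ER stress. Cebpb gave log2 signals of 6.99, 6.98 and 6.93 with 4EGI-1, against 6.60, 7.05 and 6.63 in untreated cells. The groups overlapped through 1 array: untreated replicate 2 exceeded every treated array, while untreated replicates 1 and 3 lay below all of them. The difference was 0.21 ± 0.12 (SE; adjusted p = 0.274), and without untreated replicate 2 it was 0.36 with an adjusted p of 0.0124. Without untreated replicate 1 or 3 it was 0.13 or 0.14 (adjusted p = 0.576 and 0.534). Across the 10 genes, untreated replicate 2 was the highest of its group in 5 and the lowest in 3. The shares over all genes were not computed.

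**Figure D1:**
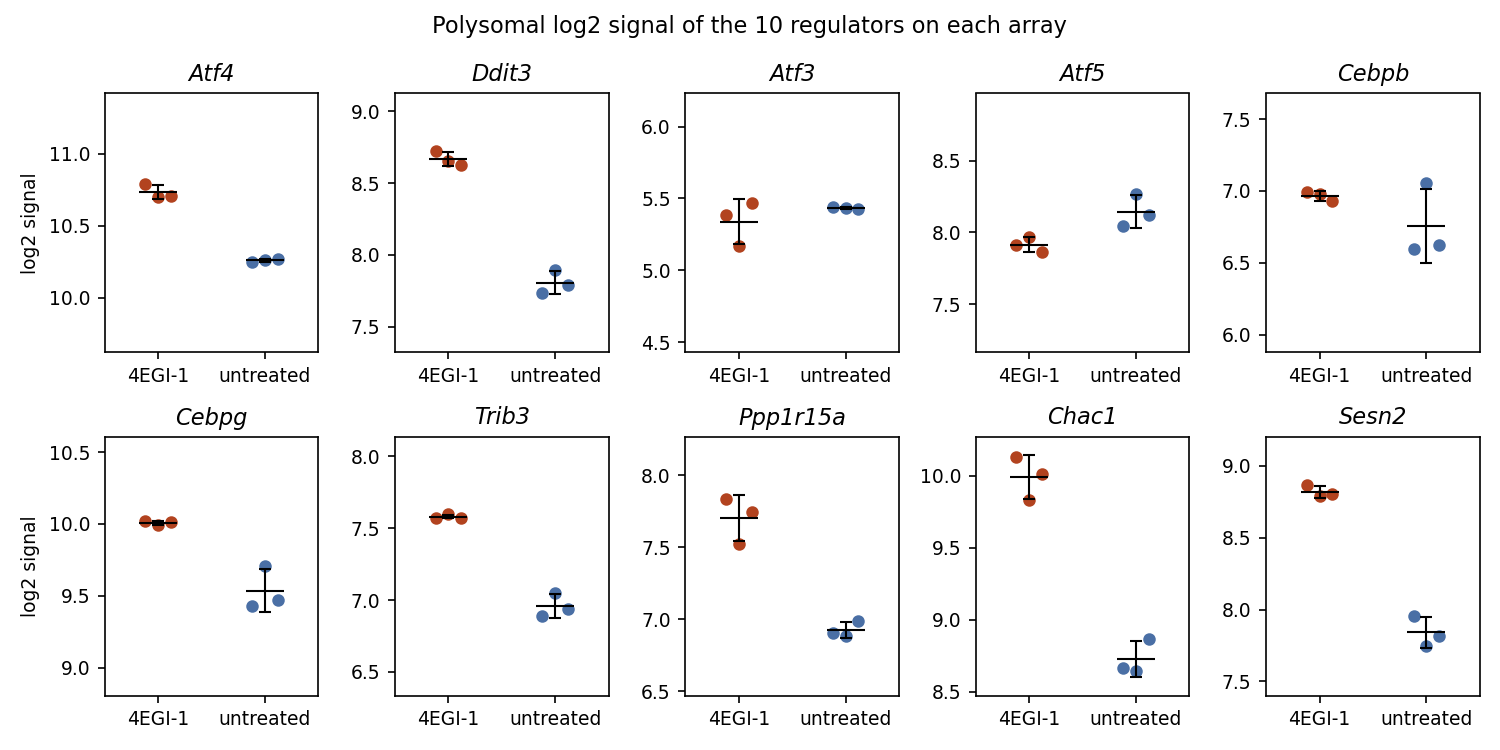
Polysomal log2 signal (vertical axis, the same span of log2 units in every panel) of the 10 genes. Points are single arrays, 4EGI-1 on the left and untreated on the right, and bars give the mean and SD of 3 arrays. In 7 genes every 4EGI-1 array lies above every untreated one, in Atf5 every one lies below, and in Atf3 and Cebpb the groups overlap.

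The feedback genes Trib3 and Ppp1r15a both rose. Trib3 encodes a pseudokinase that binds ATF4 and CHOP and restrains them. Trib3 gave log2 signals of 7.57, 7.60 and 7.57 in treated cells and 6.89, 7.05 and 6.94 in untreated cells. The treated values lay within a few hundredths of each other, above all untreated values. The difference was 0.62 ± 0.07 (SE; adjusted p = 0.000372).

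Ppp1r15a encodes GADD34, the stress-induced subunit that guides a phosphatase to eIF2α, and its mRNA has upstream frames. Its log2 signal was 7.84, 7.52 and 7.75 with 4EGI-1, against 6.90, 6.88 and 6.99 in untreated cells. Even the lowest treated array, replicate 2, was above the highest untreated one. The difference was 0.78 ± 0.09 (SE; adjusted p = 0.000546). The overlapping gene Tulp2 differed by 0.06 ± 0.07 (adjusted p = 0.608).

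The effector genes Chac1 and Sesn2 showed the largest changes of the 10. Chac1 encodes an enzyme that breaks down glutathione and is a target of ATF4. Its log2 signal was 10.13, 9.83 and 10.01 with 4EGI-1 and 8.66, 8.64 and 8.87 in untreated cells. All 4EGI-1 arrays lay well above all untreated ones. The difference was 1.27 ± 0.10 (SE; adjusted p = 0.00011), with a 95% interval of 1.05 to 1.49. Of all genes tested, 0.261% had a larger difference.

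Sesn2 encodes sestrin 2, a leucine sensor that restrains the growth kinase complex mTORC1 and is induced by ATF4 and by p53. Its log2 signal was 8.87, 8.79 and 8.81 with 4EGI-1, against 7.96, 7.75 and 7.82 in untreated cells. The treated group again lay wholly above the untreated one. The difference was 0.98 ± 0.07 (SE; adjusted p = 9.34e-05), and 0.818% of genes tested had a larger one.

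Taking the 10 genes side by side, the groups did not overlap with 4EGI-1 higher in 7 and with 4EGI-1 lower in 1, against 17.0% and 20.8% of all genes tested. Of the 7 that rose, 5 did so by at least 1.5-fold (Chac1, Sesn2, Ddit3, Ppp1r15a and Trib3), a size passed with the same test by 3.72% of all genes. Atf4 and Cebpg rose by less, and their 95% intervals, 0.34 to 0.61 and 0.28 to 0.66, lay below that of Chac1. Each of the 7 kept its direction and its call under all 14 alternatives run. With 3 arrays against 3, an exact two-sided permutation test of a single gene cannot go below p = 0.1, which all 7 and Atf5 reached.

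**Figure D2:**
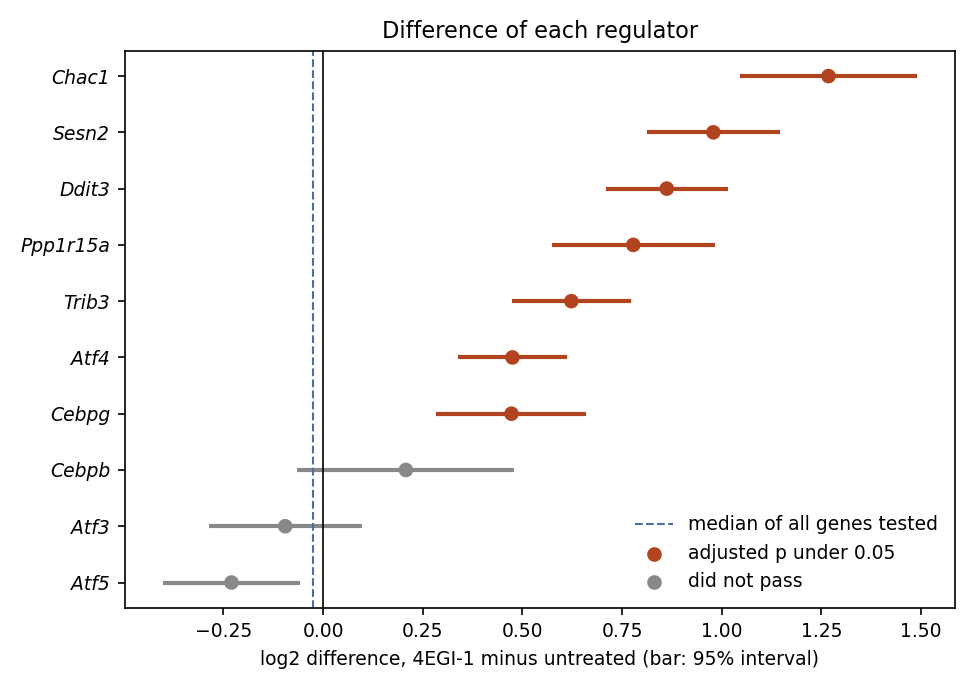
Log2 difference, 4EGI-1 minus untreated (horizontal axis), of each gene with its 95% interval, not adjusted for the number of genes tested. The dashed line is the median of all genes tested, -0.03. Chac1 lies farthest right at 1.27, and the intervals of Atf3 and Cebpb cross 0.

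Several of these genes have close relatives, and the changes were compared within 10 pairs. In a list of 10 relatives outside the 10 genes, all of them measured, 0 rose, 3 fell and 7 did not pass. Of all genes tested, 11.5% were higher and 11.5% lower. The sestrin genes moved apart: Sesn1 and Sesn3, which are known as targets of p53 and FOXO factors, fell by 0.72 ± 0.07 and 0.47 ± 0.06 on the log2 scale (SE; adjusted p = 0.000303 and 0.00116). The change of Sesn2 exceeded that of Sesn1 by 1.70 and that of Sesn3 by 1.45 on the log2 scale. Trib2, a tribbles gene known as a leukaemia oncogene, fell by 0.67 ± 0.07 (adjusted p = 0.00028), so that the change of Trib3 exceeded it by 1.30. Trib1 differed by -0.03 ± 0.08 (adjusted p = 0.852), a gap to Trib3 of 0.65.

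Chac2, which encodes the constitutive relative of the Chac1 enzyme, differed by 0.09 ± 0.09 (adjusted p = 0.586), 1.18 less than Chac1. Ppp1r15b, the constitutive partner of the eIF2α phosphatase, whose mRNA also has upstream frames, differed by 0.10 ± 0.06 (adjusted p = 0.341), 0.68 less than Ppp1r15a. The change of Atf4 exceeded that of Atf5 by 0.71 and the change of Ddit3 exceeded that of Cebpg by 0.39, while Cebpb minus Cebpg was -0.26. In these 9 pairs the per-array log2 ratios of the 4EGI-1 and untreated arrays did not overlap, and each gave p = 0.1 in an exact two-sided permutation test, the smallest that 3 against 3 allows (adjusted over 10 pairs, 0.111). For Atf3 and its relative Jdp2, which encodes a repressor of the same family, the ratios overlapped (-0.23, exact p = 0.2). No pair could therefore reach a threshold of 0.05. Each of the other 9 pairs holds at least 1 gene whose own groups did not overlap. The share over gene pairs in general was not computed.

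**Figure D3:**
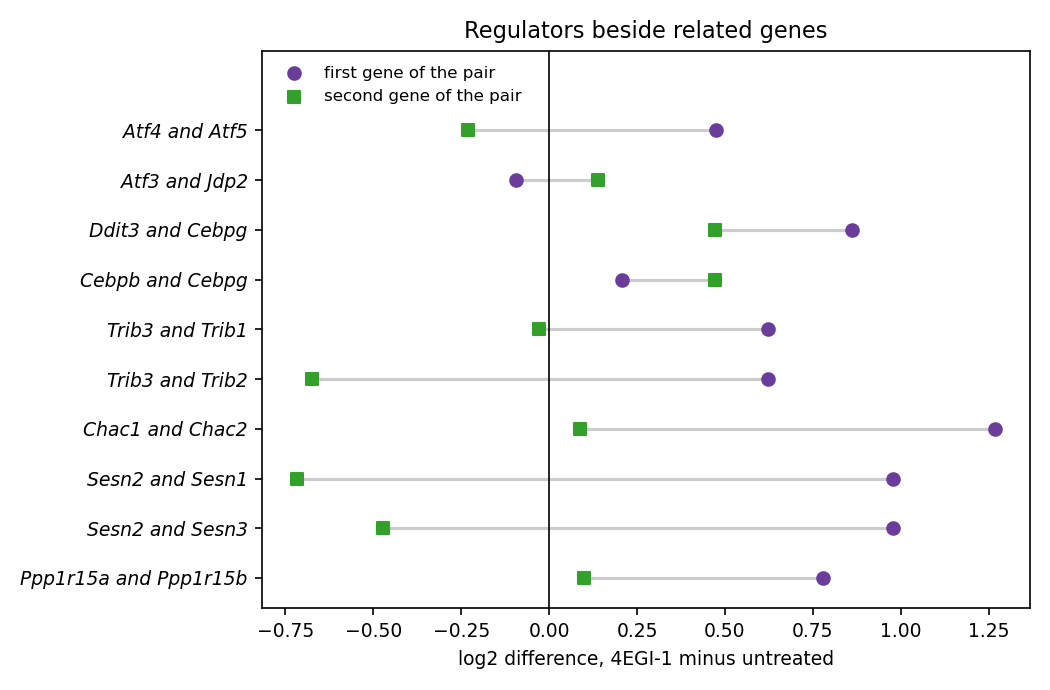
Log2 difference, 4EGI-1 minus untreated (horizontal axis), of the first gene (circle) and the second gene (square) of 10 pairs. Sesn2 lies at 0.98 with Sesn1 at -0.72 and Sesn3 at -0.47, and Trib3 at 0.62 with Trib2 at -0.67.

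Upstream of ATF4 stand the eIF2α kinases and their partners. Of 9 such genes listed, 8 had a value; 1 rose (12.5%, against 11.5% of all genes), 2 fell and 5 missed the threshold. Their differences ran from -0.36 to 0.81 with a median of -0.01. Eif2ak3, which encodes the ER kinase PERK, rose to a log2 signal of 9.74 ± 0.03 with 4EGI-1, against 8.93 ± 0.07 in untreated cells (SD, n = 3 each; adjusted p = 0.00012). Eif2ak4, which encodes the amino acid sensor GCN2, differed by -0.04 ± 0.06 (SE; adjusted p = 0.744). Dnajc3, which encodes the PERK inhibitor P58IPK, fell by 0.36 ± 0.06 (adjusted p = 0.00305). Eif2ak2, the gene of the RNA-sensing kinase PKR, was 0.23 lower (adjusted p = 0.0475), and this call ended without any single 4EGI-1 array or without untreated replicate 1 or 3 (adjusted p 0.0684 to 0.144). Eif2s1, which encodes eIF2α, was not measured by a probe set of its own.

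Of 19 other bZIP genes whose products can pair with these factors, 2 rose (10.5%, near the 11.5% of all genes), 1 fell and 16 missed the threshold, with a median of -0.03. Jun, an AP-1 subunit gene, rose to 8.41 ± 0.15 with 4EGI-1, against 7.04 ± 0.25 in untreated cells (SD, n = 3 each; adjusted p = 0.000253). Nfe2l2, which encodes the oxidative stress factor NRF2, rose by 0.64 ± 0.06 (SE; adjusted p = 0.000186), and Mafk, a small MAF gene, fell by 0.31 ± 0.07 (adjusted p = 0.0103).

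Downstream, about as many ATF4 targets rose as did not pass. In amino acid transport and synthesis 10 of 19 rose (52.6%, against 11.5% of all genes), 0 fell and 9 did not pass. The median was 0.26. The members that rose were mostly transporters, such as the cystine transporter gene Slc7a11 at 1.21 ± 0.06 (SE; adjusted p = 3.93e-05) and its heavy chain Slc3a2 at 1.02 ± 0.06 (5.8e-05). The asparagine synthetase gene Asns, one of the best known ATF4 targets, differed by 0.07 ± 0.06 (adjusted p = 0.458), with log2 signals of 12.22 ± 0.02 with 4EGI-1 and 12.14 ± 0.05 in untreated cells (SD, n = 3 each). Of 12 tRNA synthetase and tRNA export genes 6 rose (50.0%, against 11.5% of all genes), 1 fell and 5 did not pass (median 0.19). The leucyl enzyme gene Lars rose by 1.47 ± 0.06 and the glutamyl-prolyl gene Eprs by 1.17 ± 0.06, while the tRNA export receptor gene Xpot fell by 0.36 ± 0.08.

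Of the stress effectors downstream of ATF4 or CHOP, 8 of 16 rose, 1 fell and 7 were short of the threshold (median 0.32). The share that rose was 50.0%, against 11.5% of all genes. Gadd45a, a growth arrest gene, rose by 1.16 ± 0.07 (SE) and Herpud1, an ER-associated degradation gene, by 1.12 ± 0.06, while the autophagy gene Map1lc3b fell by 0.47 ± 0.10. In the list of ER chaperones and the ATF6 and IRE1 branches 2 of 17 genes rose, 1 fell and 14 did not pass (median 0.00); the share that rose, 11.8%, was near the 11.5% of all genes. Atf6, the gene of the ER-anchored factor ATF6, rose by 0.62 ± 0.07 and Edem1 by 0.30 ± 0.06, while the chaperone gene Hspa5 differed by 0.05 ± 0.06 (adjusted p = 0.611). Manf was 0.26 lower (adjusted p = 0.0428), a call that ended without any single 4EGI-1 array or without untreated replicate 2 or 3 (adjusted p 0.0866 to 0.134). Of 6 other mRNAs known for upstream frames that keep them translated when eIF2 is limiting, 3 rose, 1 fell and 2 did not pass. Their share that rose was 50.0%, against 11.5% of all genes. The arginine transporter gene Slc7a1 rose by 0.80 ± 0.06, and Slc35a4 fell by 0.78 ± 0.09 (adjusted p = 0.000492).

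**Figure D4:**
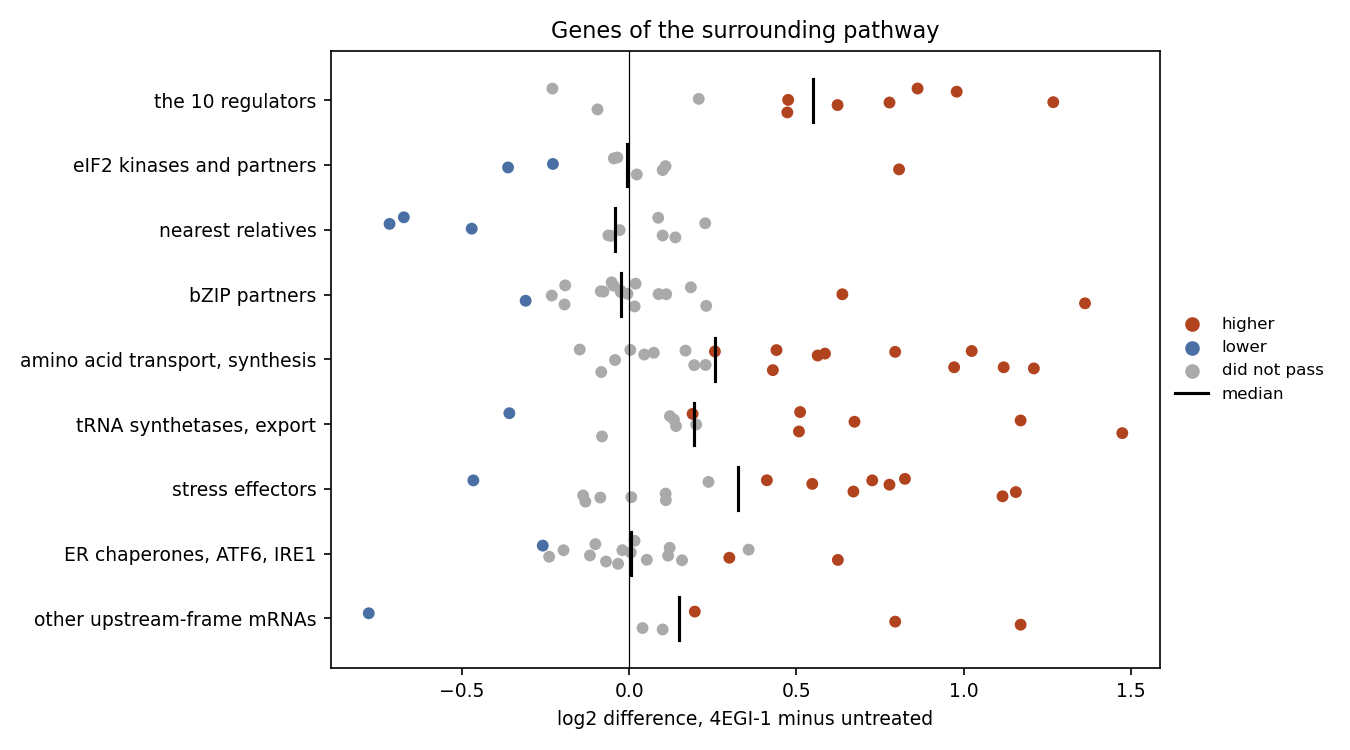
Log2 difference, 4EGI-1 minus untreated (horizontal axis), of the 10 genes and of 8 lists of the surrounding pathway, 1 point per gene, with list medians as black bars. Some genes belong to several lists. The medians were 0.55 for the 10 genes, 0.26 for amino acid transport and synthesis, 0.32 for stress effectors and 0.00 for ER chaperones with the ATF6 and IRE1 branches.

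Over the lists together, without the 10 genes, 30 of 103 genes rose and 10 fell. By the same test 11.5% of all genes tested rose, and the share in the lists was 29.1%. The 11.5% set beside each list is not matched for signal. Median untreated log2 signals were 9.18 in the lists and 6.65 over all genes tested. Of 11059 genes at or above the table's median signal, tested alone, 2339 rose and 2804 fell, larger shares than over all genes. The lists were written with results of these arrays known and are therefore a description of the pathway, not independent evidence of its direction.

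The 6-array profile of Ddit3, taken relative to its untreated mean, was closest to those of Nupr1, Itpr2 and Zfp638, with root mean square differences of 0.034, 0.035 and 0.036 log2 units. Nupr1 had a log2 signal of 8.75 with 4EGI-1 and 7.93 in untreated cells. For Atf4 the closest were Simc1, Tbce and Dock10 at 0.012, 0.016 and 0.018. Only genes with a mean at or above the median of all genes were searched, and 6 arrays in 2 groups mostly measure the size of the difference.

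As to the arrays, medians over all 34760 probe sets were 6.38 to 6.43, and arrays correlated across genes at 0.996 to 0.997 within a group and at 0.988 to 0.990 between groups. The T-cell label was checked against marker genes: 16 T-cell genes averaged 10.15 to 10.20 on the 4EGI-1 arrays and 10.35 to 10.36 on the untreated arrays, of which 2 rose and 7 fell. The 5 B-cell genes averaged 5.39 to 5.52 with 4EGI-1 and 5.52 to 5.62 without it, with 0 called. Erythroid genes (3 measured) averaged 6.58 to 6.76 with 4EGI-1 and 6.59 to 6.80 in untreated cells, and stromal and endothelial genes (6 measured) 6.83 to 6.87 with 4EGI-1 and 6.87 to 6.91 in untreated cells, again with 0 called. The 7 myeloid genes averaged 6.01 to 6.02 with 4EGI-1 and 5.89 to 5.94 in untreated cells, and 2 of them, Adgre1 and Cd68, rose, Cd68 not without 4EGI-1 replicate 3 or untreated replicate 1 (adjusted p = 0.0606 and 0.0634). Adgre1 averaged 5.554 with 4EGI-1 and 4.915 in untreated cells, below the table's median signal of 6.40, so whether its transcript was present is not known. The other 5 myeloid genes did not pass. Among them, Lyz2, named after its values were seen, averaged 4.95 with 4EGI-1 and 5.03 in untreated cells. By the same rule, 11.5% of all genes tested were higher and 11.5% lower. Whether these markers bear on the 10 genes was not tested, and in bulk RNA a change in the number of cells of a type and in RNA per cell cannot be told apart.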

How the data were processed

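RNA of pooled polysome fractions from 6 samples was hybridised to 1 array each, 3 with 4EGI-1 and 3 untreated, grouped by sample title. The authors deposited log2 signals for each probe set, which RMA had produced per the submitters' processing notes (version and settings: not given in the sources used here). Because RMA equalises arrays, differences are relative within an array. Of 34760 probe sets, 21640 carried 1 gene symbol, 1321 several, and 11799 are not listed in the platform annotation used; symbols were updated by Entrez identifier (RefSeq, GRCm38.p6) for 21553. Each symbol was represented by its brightest probe set (6-array mean), giving 19937 genes.

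Differences were fitted on all genes with lmFit and eBayes of limma 3.58.1 (R 4.3.3), with no filter, two-sided, Benjamini-Hochberg adjusted over all genes, threshold 0.05. SE is the moderated standard error, and 95% intervals use its 8.15 degrees of freedom. Lists are described by counts and medians. The limma fit was tested on simulated data, and the other steps were not. The number of arrays limits the precision. Promoter sequences are from RefSeq; its assembly is not known to be that of the array design.

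The 10 genes and the lists were chosen with earlier results of these data known. Genes outside the 10 are named by a fixed rule: up to 2 that passed in each direction in each list, 13 fixed genes, and the 3 closest profiles to Atf4 and to Ddit3. Lyz2 and the measured genes that overlap one of the 10 were named after their values were seen. Gm45095 and Il4i1b, which overlap too, had no values.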

Additional observations from a re-analysis of the deposited data

How the results depend on the processing

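The settings varied were the block (replicate number), a signal filter (table's median or 25th percentile), the probe sets tested (all, or the mean per symbol), quantile normalization, the prior (trended and robust), array quality weights, the threshold (0.01) and the arrays (each left out once). The 7 genes that rose did so under each of them. The count of lower genes among the 10 was 1 in place of 0 at or above the table's median signal, at or above its 25th percentile and with the trended robust prior. That gene was Atf5 each time, at an unmoved difference of -0.23; with the filters fewer genes were tested. Cebpb ranged from 0.13 to 0.36 with 1 array left out, passing without untreated replicate 2 only. Atf3 has no value at or above the table's median signal. At an adjusted p under 0.01, 1488 genes were higher and 1248 lower, against 2286 and 2287. With 1 array left out, Trib1 ranged from -0.0685 to 0.0451, positive without 4EGI-1 replicate 1, and Chac2 from -0.0109 to 0.136, negative without untreated replicate 3; neither passed, and the cause was not tested. The gaps within pairs, with each array left out (added after seeing the data), kept their sign. With the replicate number as a block, 2097 genes were higher and 1974 lower, and among the 10 the calls did not change. Among the other named genes, Eif2ak2 (adjusted p = 0.0531) and Manf (0.0648) no longer passed. In the lists, the genes that rose went from 6 to 5 for tRNA synthetases and tRNA export. For other mRNAs with upstream frames they went from 3 to 2, and T-cell genes that fell went from 7 to 6. Deviations of same-numbered arrays correlated at 0.061, 0.107 and -0.021, and those of differently numbered arrays at -0.109 to 0.055. The labels state no pairing, so the numbers were not taken to pair the samples. Signal over background was not used here, which limits what can be said of Atf3.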

Other observations

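Genes with the same promoter letters were looked at across the table, as a description with no test. Of 424 genes tested with TGACGTCA in a window, 85 rose after 4EGI-1, which is 20.0%, against 11.6% of genes with a window but no such match. For TGACGNAA the share was 17.5% of 359 genes, against 11.7% without it. For TGATGNAA it was 12.0% of 565 genes, against 11.8% without it. Genes can have several windows, and base composition and signal were not matched between genes with and without a match. Of the 11059 genes at or above the table's median signal, tested alone, 2339 rose, a larger share than over all genes. The share of genes with a match that fell was not computed, so these values do not tie the letters to a rise.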
